A study of Mus musculus with 8 samples.

Results

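The sorted progenitors compared here were KLS- cells, which carry cKit and lack lineage antigens and Sca-1, from the bone marrow of chronic myelogenous leukaemia (CML)-affected mice and from normal mice. The comparison used 2 of the 8 RNA-sequencing libraries of the study, 1 library for CML KLS- cells and 1 for normal KLS- cells. It covered the 8403 genes, of 20207 in the files, that reached 2 RPKM (reads scaled by transcript length and by the number of mapped reads) in at least 1 of these libraries. The study set stem and progenitor cells of healthy and CML-affected mice side by side, and the other 6 libraries came from long-term (LT) and short-term (ST) stem cells of the same kinds of mice. In its methods, CML-affected mice were Tal1-tTA × TRE-BCR-ABL1 double transgenics on the FVB/N background, in which the Tal1 promoter drives the tetracycline transactivator and withdrawal of doxycycline (DOX) switches on BCR-ABL1. The controls were Tal1-tTA littermates, which carried the transactivator but not the oncogene and were sampled after the same withdrawal, and both sexes were used, with the same range of ages in both groups. The deposited labels instead gave the strain of all 8 libraries as C57BL/6, an age of 2 months for the normal KLS- mice and no age for the CML mice. The strain is thus stated differently by these sources, and the number of animals pooled in each library was not given in the sources used here.

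KLS- cells are committed progenitors, the stage at which haematopoietic cells are assigned to granulocytes, monocytes, erythroid cells or megakaryocytes before they lose cKit. BCR-ABL1 is a constitutively active tyrosine kinase that signals through RAS and ERK, PI3 kinase and STAT5, and CML is known for an overproduction of maturing granulocytes that starts at the progenitor stage. Each granulocyte lineage stores its own proteins in granules, and the transcripts of these proteins appear in sequence, with those of the primary granules earliest and those of the secondary granules later.

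The transcripts of the sorting antigens were read first. Kit, the receptor used as the positive gate, was at 78.4 RPKM in normal and 88.2 RPKM in CML KLS- cells. Ly6a, which encodes Sca-1, was at 8.16 and 11.7 RPKM in the KLS- libraries and between 72.4 and 152 RPKM in the 6 LT and ST libraries. The T lymphocyte transcript Cd3e was near 0 in both, at 0.0688 and 0 RPKM. Cd4 was at 0.16 RPKM in normal and 1.43 RPKM in CML cells, under the minimum. Of the lineage antigens of the gate, Itgam (CD11b) was at 4.18 and 6.50 RPKM. Stem cell transcripts such as Procr (0.657 and 0.784 RPKM) were low in both libraries. Both libraries held Xist (13.6 and 12.4 RPKM), the RNA of the inactive X chromosome, and almost no Ddx3y, a Y-linked transcript, at 0.0106 and 0 RPKM. Both libraries thus had Kit and little Ly6a, the pattern that the gate defines.

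The depth of the KLS- libraries was estimated at 20.2 M reads for normal and 17.8 M for CML cells, within a range of 17.8 to 23.8 M over the 8 libraries. At that depth 3 reads in a transcript of 1 kb corresponded to 0.149 RPKM in normal and 0.169 RPKM in CML cells, so values near these cannot be told from no signal. All intervals below are exact intervals with 95% confidence for a ratio of estimated reads. They cover counting error only, since amplified cDNA reads are not independent molecules. With 1 library for each group no p-value was computed, and the replicate spread of KLS- cells is unknown. Because the cells were sequenced in bulk, fewer cells of a type and less RNA per cell cannot be told apart in any of the differences that follow.

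Differences are given as CML minus normal on the log2(RPKM + 1) scale, which understates the change of genes near or under 1 RPKM. Of the 8403 genes, 215 (2.56%) were higher by 1 or more in CML KLS- cells and 164 (1.95%) were lower by 1 or more, 379 (4.51%) in all. The shares of 2.56% higher and 1.95% lower are those to set beside the counts of every gene list below. A difference of 2 or more was met by 51 genes (0.607%) that were higher and by 14 genes (0.167%) that were lower. The median difference of all 8403 genes was -0.02, with quartiles of -0.24 and 0.22, and 81.9% of the genes lay within 0.5 of 0. Of the 215 higher genes 91 reached the minimum in the CML library alone, and of the 164 lower genes 70 reached it in the normal library alone. Such genes could pass the minimum only through the library where they were high, so the counts and medians of the gene lists below describe the genes at the minimum and are partly set by it. As a measure of the spread between libraries of 1 population, the LT libraries of normal mice, labelled 2 and 6 months, differed by 1 or more in 183 of 9067 genes (2.02%). The LT libraries of CML mice differed by 1 or more in 146 of 8942 genes (1.63%). The second LT library of each group also held more Ddx3y than the first, by 5.0 in normal and by 4.12 in CML cells. The percentage in KLS- cells was thus above that of either replicate pair, while the CML-to-normal pairs of the other populations lay between 4.09% and 5.96%. The genes nearest to the limit were Glipr2 and Bak1 just inside (1.0 each) and Med22 (0.99) and Acaa1a (1.0 after rounding) just outside. Csf2ra and Snora70 stood at -1.0 just inside, with Btg2 and Nod1 just outside at the same rounded value.

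**Figure D1:**
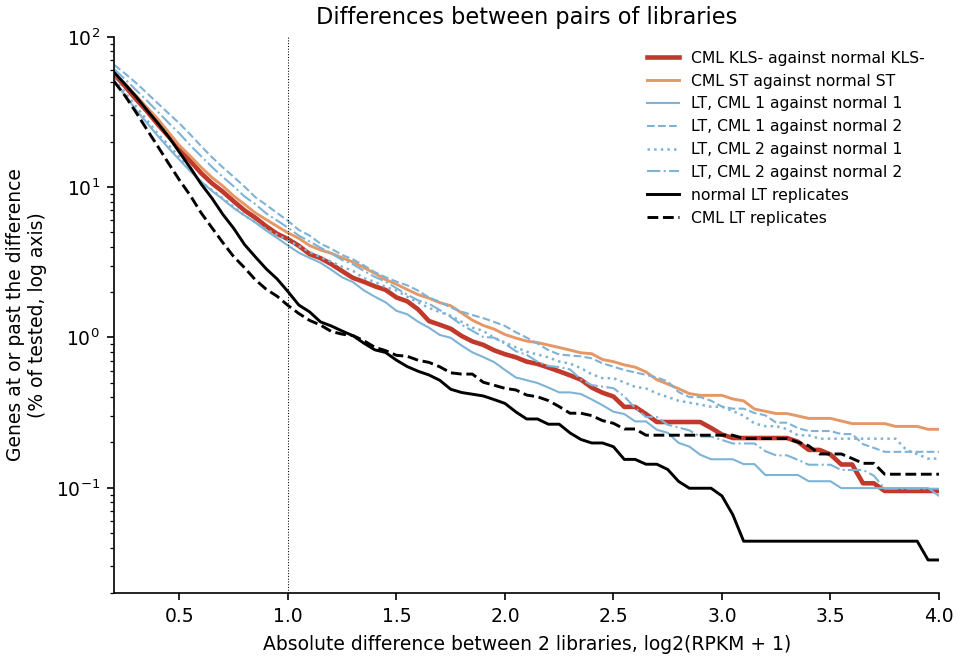
Share of tested genes (percent, log axis) that differed by at least the amount on the horizontal axis (log2(RPKM + 1)) between the libraries of each pair. At a difference of 1 the KLS- pair stood at 4.51%, against 2.02% and 1.63% for the normal and CML LT replicate pairs.

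**Figure D2:**
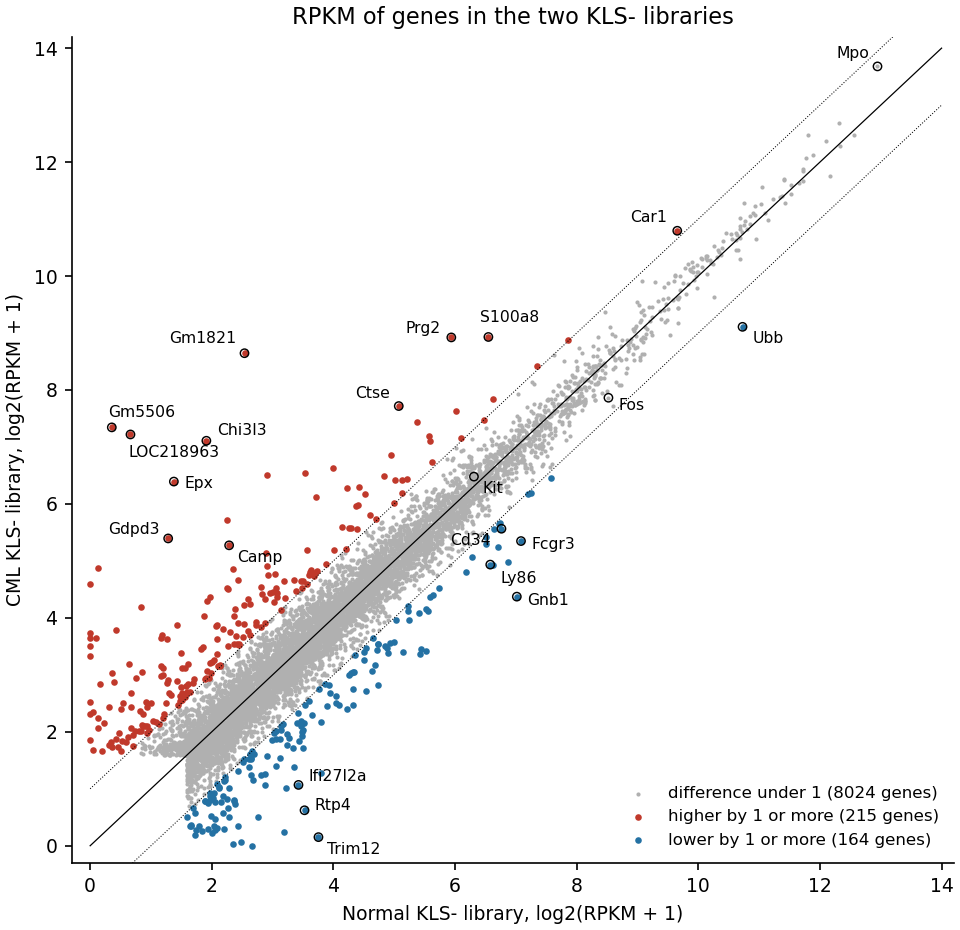
Level of each of the 8403 genes in the normal (horizontal) and CML (vertical) KLS- library, both as log2(RPKM + 1), with dotted lines at a difference of 1. The 215 genes higher in CML cells are red and the 164 genes lower in CML cells are blue.

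Transcripts of eosinophil granule proteins were higher in CML KLS- cells. Of 13 listed eosinophil genes, 8 reached the minimum, 7 of them were higher by 1 or more and 0 were lower, where 2.56% of all genes were higher. Of these 7, 5 (Epx, Ear1, Ear2, Ear6 and Ear10) reached the minimum in the CML library alone, so the count and the median of 3.45 were largely set by the minimum. Prg2 and Prg3 reached it in both libraries. When the genes that differed by 1 or more between LT replicates were set aside, 2 of the 8 (Ear6 and Siglec5) were left, with a median of 1.49. The RPKM summed over the 13 genes was 72.1 in normal and 637 in CML KLS- cells, a ratio of 8.83. Epx encodes eosinophil peroxidase and lies on the minus strand of chromosome 11 (87677502 to 87689038 in mm9). It was at 1.6 RPKM in normal KLS- cells, about 88 reads, and at 83.0 RPKM in CML KLS- cells, about 4036 reads. The ratio was 52.0 (42.2 to 65.2). Prg2, the major basic protein of the eosinophil granule, was at 60.3 RPKM in normal and 484 RPKM in CML cells, a ratio of 8.03 (7.52 to 8.58). Prg3, its homologue, was at 5.20 and 17.9 RPKM. All 3 transcripts were higher in CML cells, that of the peroxidase by the largest factor of the 3.

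The Ear genes encode the eosinophil-associated ribonucleases and lie on chromosome 14. Ear6 (52473374 to 52474318 in mm9) was listed at 0 in the normal library and at 12.3 RPKM in the CML library, at least 78.3-fold higher when 3 reads are taken as the floor, and the exact interval of the ratio began at 63.2. Ear10 was listed at 0 and at 11.5 RPKM, at least 52.6-fold higher on the same floor, with an interval from 42.3. Ear1 was at 0.346 and 12.8 RPKM and Ear2 at 0.0689 and 11.5 RPKM. All 4 ribonuclease transcripts were at or near 0 in normal cells and above 11 RPKM in CML cells. Of the Ear1, Ear2 and Ear10 transcripts, 91.9%, 91.5% and 97.2% of the bases had a match of at least 95% identity elsewhere in the genome, so reads could be exchanged among them and the split between members is uncertain. Ear3 and Ear12 were listed at 0 in both libraries.

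The receptor genes Il5ra, Ccr3 and Siglec5 did not share this pattern. Il5ra, the interleukin-5 receptor chain, was at 0.431 RPKM in normal and 0.221 RPKM in CML cells. Ccr3, the eotaxin receptor, was at 0 and 0.0343 RPKM. Siglec5 was at 4.06 and 2.00 RPKM, a difference of -0.76. In the stem cell libraries the granule transcripts were uneven. Prg2 was at 0.635 RPKM in normal and 43.0 RPKM in CML ST cells, and in LT cells at 0.419 and 8.34 RPKM in the normal libraries and 65.2 and 2.23 RPKM in the CML libraries. The CML LT libraries therefore differed widely for this gene, and the median replicate difference of the 8 genes was -1.92 in CML and 0.21 in normal LT cells. The part that single libraries play in the KLS- difference was not tested.

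Of 31 listed genes of secondary granules and mature neutrophils, 20 reached the minimum, with a median difference of 1.05. Of these 20 genes, 11 were higher by 1 or more and 0 were lower, where 2.56% of all genes were higher. Of the 11 higher genes 9 reached the minimum in both libraries. Chi3l3 encodes the secreted chitinase-like protein Ym1. It was at 2.76 RPKM in normal and 137 RPKM in CML KLS- cells, a ratio of 49.6 (40.4 to 61.3), and 38.5% of its transcript had a close match elsewhere. Camp, the cathelicidin of the secondary granule, was at 3.87 and 37.7 RPKM, a ratio of 9.72 (7.18 to 13.5). Fcnb, ficolin B, was at 10.5 and 92.2 RPKM. Lcn2, lipocalin 2, was at 6.42 and 34.4 RPKM. S100a8 and S100a9 encode the chains of calprotectin, the abundant calcium-binding protein of neutrophil cytosol. S100a8 was at 92.6 RPKM in normal and 487 RPKM in CML cells, and S100a9 at 12.1 and 68.8 RPKM.

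Other genes of the same list differed little. Ltf, the defining lactoferrin of secondary granules, was at 1.12 and 1.68 RPKM, and the gelatinase Mmp9 at 0.0314 and 0.0179 RPKM, both under the minimum. Lyz2, lysozyme, was at 117 RPKM in normal and 113 RPKM in CML cells, and Csf3r, the receptor for G-CSF, at 31.6 and 43.6 RPKM. The neutrophil genes were unstable between replicate libraries. In LT cells S100a8 was at 214 and 1802 RPKM in the normal libraries and 93.8 and 588 RPKM in the CML libraries, so the groups overlapped. The median of the 20 genes was 1.21 in ST and -0.74 in LT cells, and their median replicate difference was 1.81 in normal and 1.38 in CML LT cells. When members that differed by 1 or more between LT replicates were set aside, the KLS- median of the 6 that were left was 0.49. The part of mature neutrophils in the KLS- values was not tested.

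The primary granule enzymes, which dominate the RNA of granulocyte-monocyte progenitors, were abundant in both KLS- libraries. Mpo, myeloperoxidase, was at 7891 RPKM in normal and 13120 RPKM in CML cells, a difference of 0.73. Ela2, neutrophil elastase, was at 3582 and 5672 RPKM (0.66), and Prtn3, proteinase 3, at 877 and 1124 RPKM (0.36). All 14 matched genes reached the minimum, and Hp, haptoglobin, was the single one higher by 1 or more, with 162 and 343 RPKM. No gene of the list was lower by 1 or more. The list's median was 0.29 and its summed RPKM was 17124 in normal and 25233 in CML cells. The 10 most abundant genes of all kinds held 10.7% of the summed RPKM in normal and 12.4% in CML cells. In CML LT cells 11 of the 14 genes differed by 1 or more between the replicates. Setting aside the genes that did so in either LT group left 3, with a median of -0.07, and Mpo, Ela2 and Prtn3 were not among them.

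**Figure D3:**
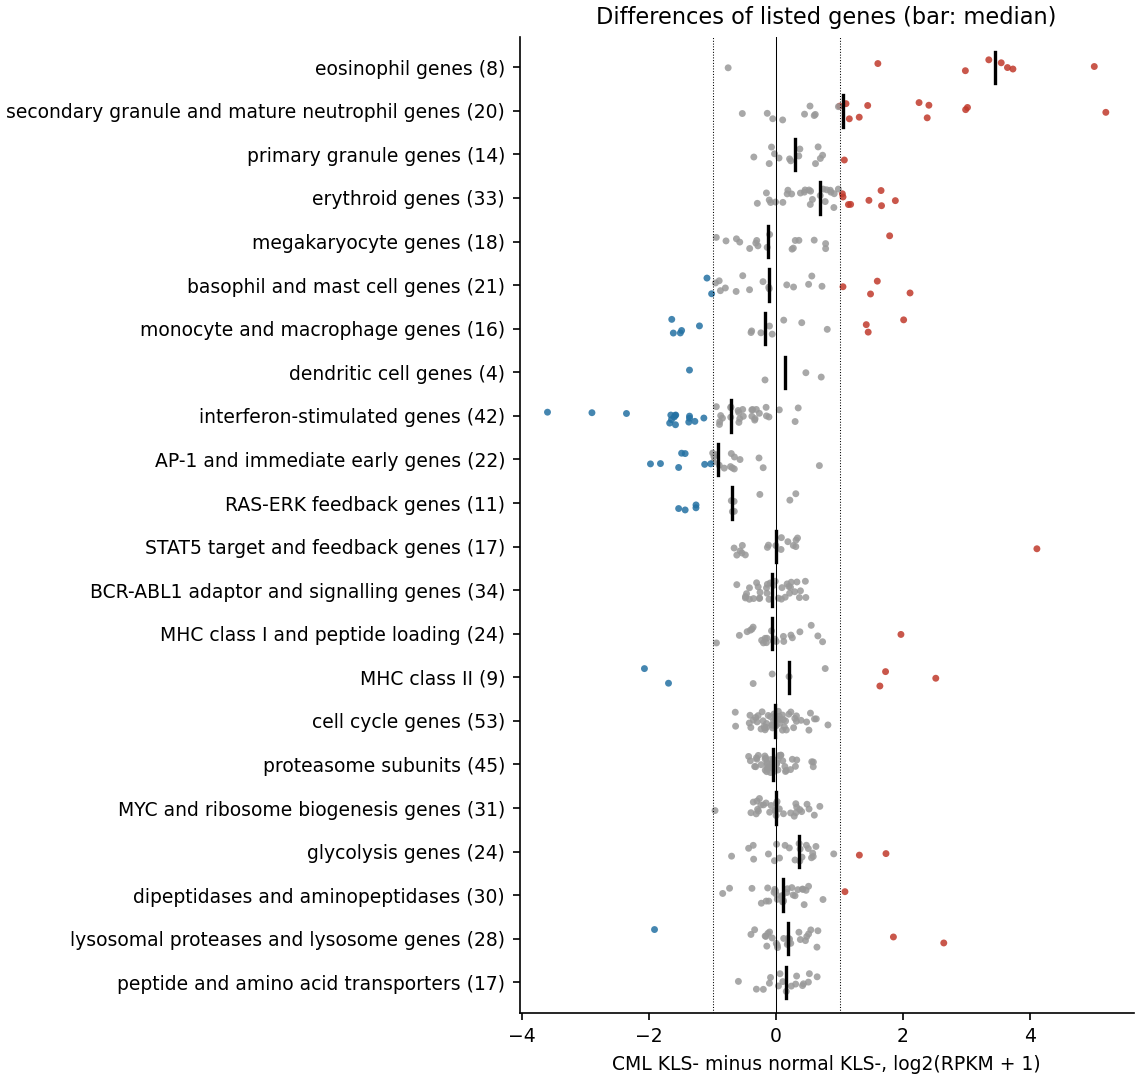
Difference of each tested gene between CML and normal KLS- cells (log2(RPKM + 1), horizontal) for 22 gene lists (vertical, number of tested genes in parentheses), with a black bar at each median and dotted lines at 1 and -1. Eosinophil and neutrophil genes extended furthest to the right, and interferon-stimulated, immediate early and RAS-ERK feedback genes lay mostly to the left of 0.

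Most erythroid transcripts were above 0 in the difference between CML and normal KLS- cells, few of them by 1 or more. Of 48 listed genes 33 reached the minimum, and 28 of these were above 0 and 5 below. The median was 0.70, 8 genes were higher by 1 or more, where 2.56% of all genes were higher, and 0 were lower. Rhag, the Rh-associated glycoprotein of the red-cell membrane, was at 20.4 RPKM in normal and 77.6 RPKM in CML cells, a ratio of 3.81 (3.55 to 4.1). Car1, carbonic anhydrase 1, was at 804 and 1775 RPKM. Rhd was at 34.1 and 71.9 RPKM, and Aqp1, the water channel of red cells, at 10.2 and 22 RPKM. Cldn13 was at 21.9 and 71.1 RPKM, Add2, which encodes a skeleton protein, at 6.81 and 20.5 RPKM, and Mt2, a metallothionein, at 27.4 and 88.7 RPKM.

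Gata1, Klf1, Epor and Hbb-b1, named for their roles in the lineage, differed by less than 1. Gata1, the erythroid master factor, was at 38.1 and 57.2 RPKM (0.57), Klf1 at 6.34 and 9.07 RPKM (0.46) and Epor, the erythropoietin receptor, at 2.97 and 4.79 RPKM (0.54). Hbb-b1, adult beta globin, was at 2.21 RPKM in normal and 1.61 RPKM in CML cells. Hba-a1 was listed at 0 in both and in every other library, so its transcript was not scored in these files. The list's median was 0.30 in ST and -0.26 in LT cells. Car1 was higher in CML cells of the ST pair, at 21.6 and 91.7 RPKM. In LT cells the order was the opposite, with 30.6 and 26.7 RPKM in normal and 2.71 and 6.11 RPKM in CML libraries.

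Monocyte and macrophage transcripts were split, with 3 of 16 tested genes higher and 5 lower by 1 or more and a median of -0.17. Over all genes 2.56% were higher and 1.95% lower. Of the 16 differences 10 were below 0, while the RPKM summed over the list was 1331 in normal and 1623 in CML cells. The abundant members F13a1 (156.5 and 274.5 RPKM) and Ly6c2 (785 and 1039 RPKM) were higher by less than 1. For 89.3% of the Ly6c2 transcript a close match lay elsewhere in the genome. Monocyte genes that were lower included Ly86, the MD-1 partner of a Toll-like receptor homologue, at 94.6 RPKM in normal and 29.6 RPKM in CML cells. Cx3cr1, the fractalkine receptor, was at 6.33 and 1.39 RPKM. Klf4, a factor needed for monocyte development, was at 10.1 and 2.97 RPKM, and Ms4a6b and Ms4a6c were at 24.7 and 8.02 and at 89.6 and 38.2 RPKM. Those higher were Mpeg1, a macrophage perforin, at 6.48 and 29.1 RPKM, Cd14, the endotoxin co-receptor, at 31.1 and 85.1 RPKM, and Lgals3, galectin 3, at 0.823 and 3.99 RPKM. The lineage factors Irf8 (37.7 and 28.7 RPKM) and Csf1r (18.2 and 16.9 RPKM) differed by less than 1. The complement genes C1qa, C1qb and C1qc, markers of resident macrophages, were under the minimum.

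Fcgr3 and Cd34, among the antigens that divide KLS- cells into classes of progenitor, were lower in CML cells, while Fcgr2b was at a similar level. Fcgr3, whose product is part of the CD16/32 stain that marks granulocyte-monocyte progenitors, was at 134.7 RPKM in normal and 39.7 RPKM in CML cells. The normal value was 3.39 times the CML value (3.18 to 3.61). Cd34, which separates common myeloid from megakaryocyte-erythroid progenitors, was at 107.6 and 46.3 RPKM, a ratio of 2.32 (2.21 to 2.44). Fcgr2b, the other receptor seen by that stain, was at 36.3 and 35.6 RPKM. Of 8 sorting markers tested, Fcgr3 and Cd34 were the 2 lower by 1 or more and 0 were higher, where 1.95% of all genes were lower. Fcgr3 was higher in CML cells of the ST pair, at 0.511 and 4.80 RPKM.

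Transcripts of the remaining lineages showed no common shift. Of 18 megakaryocyte genes tested, Selp, P-selectin, alone was higher by 1 or more, with 3.21 and 13.6 RPKM, and 0 were lower, with a median of -0.12. Pf4, platelet factor 4, was at 77.6 and 44.5 RPKM. Of 21 basophil and mast cell genes, 4 were higher and 2 lower, with a median of -0.11. The higher ones included the mast cell proteases Tpsb2 (0.0907 and 3.71 RPKM) and Cma1 (0.918 and 4.38 RPKM) and the steroid enzyme Cyp11a1 (0.890 and 4.71 RPKM), whereas the basophil protease Mcpt8 was at 33.1 and 47.7 RPKM and the mast cell carboxypeptidase Cpa3 at 51.4 and 26.0 RPKM. The 2 lower genes were the chemokines Ccl3 (89.5 and 41.6 RPKM) and Ccl4 (145 and 71.3 RPKM). Of 6 lymphoid genes tested, Gimap6 was lower, with 12.9 and 1.43 RPKM, and 0 were higher (median -0.42). Of 4 dendritic cell genes, Bst2 was lower and 0 were higher, with a median of 0.15 that was -0.17 without the genes unstable between LT replicates. Vcam1, at 6.36 and 14.1 RPKM, was higher among 4 stromal and endothelial genes (median 0.56), of which Cdh5 and Col1a1 were listed at 0 in both libraries. Egr1 was lower among 11 stem-cell-associated genes (median -0.32), and none of these were higher.

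**Figure D4:**
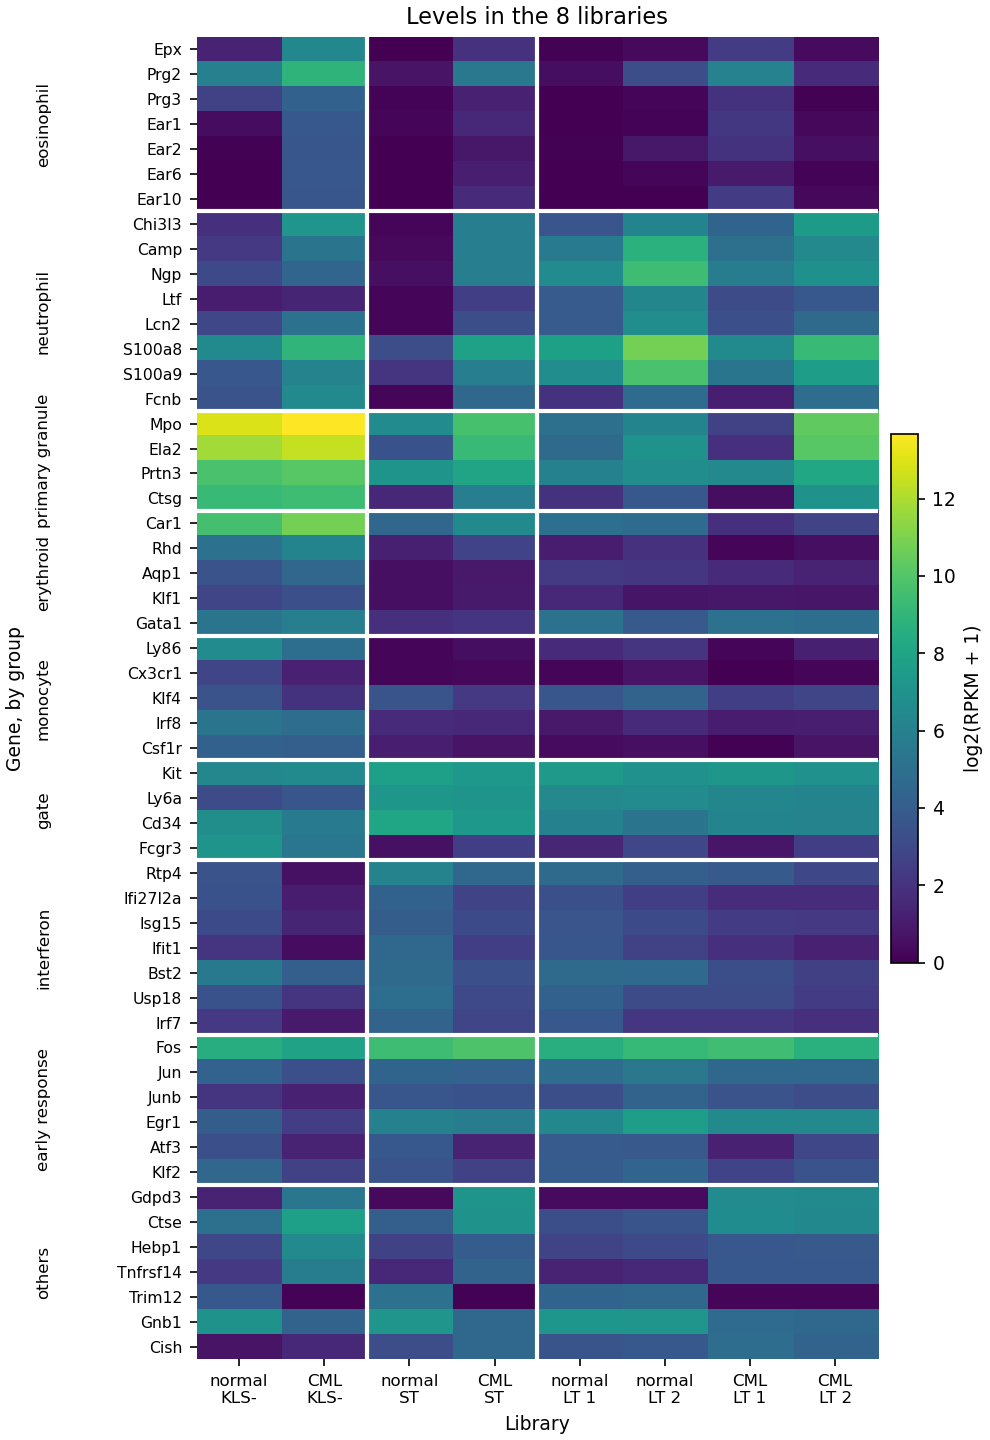
Level of selected genes (rows, by group) as log2(RPKM + 1) in each of the 8 libraries (columns). Epx was at 83.0 RPKM in CML KLS- cells and 4.47 RPKM or less in the other 7 libraries, while Gdpd3 and Ctse were higher in every CML library than in every normal library.

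Signalling by BCR-ABL1 was addressed through lists of its known feedback genes. The STAT5 list had a median of 0.00 over 17 tested genes, with 1 higher by 1 or more and 0 lower. The higher one was Gdpd3, a lysophospholipase D, which was placed in this list and in that of lipid genes with earlier results of these data known. Gdpd3 (chromosome 7, plus strand, 133909928 to 133919157 in mm9) was at 1.43 RPKM in normal and 41.0 RPKM in CML KLS- cells, a ratio of 28.6 (19.9 to 42.3). It was at 0.249 and 132 RPKM in ST cells, and in LT cells at 0.329 and 0.314 RPKM in normal and 95 and 88.5 RPKM in CML libraries. All 4 CML libraries were above all 4 normal libraries, and the CML KLS- level was the lowest of the 4. Cish, the classical STAT5-induced inhibitor, was under the minimum at 0.640 and 1.84 RPKM, and in the ST and LT libraries was between 8.25 and 28.9 RPKM. Pim1, a STAT5-induced kinase, was at 3.72 and 4.96 RPKM, and Bcl2l1, the BCL-XL gene, at 6.37 and 7.39 RPKM.

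Of 11 tested feedback genes of RAS and ERK, 4 were lower by 1 or more, where 1.95% of all genes were lower. The list had 0 higher genes and a median of -0.69. Its median was -0.23 in ST and -0.27 in LT cells, and its median replicate difference was 0.38 in normal and -0.06 in CML LT cells. Dusp6, the ERK phosphatase, was at 18.2 RPKM in normal and 7.01 RPKM in CML cells. Dusp2 was at 8.39 and 2.91 RPKM, Ier3 at 45.9 and 16.4 RPKM and Egr1 at 15.5 and 4.68 RPKM. Between the normal LT libraries Egr1 differed by 1.28. Spry2, a receptor tyrosine kinase inhibitor, was at 15.5 and 18.2 RPKM and Myc at 104.5 and 129.9 RPKM. Of 34 adaptors and kinases downstream of BCR-ABL1, 0 were higher and 0 lower by 1 or more (median -0.07). Abl1 itself was at 3.04 and 2.27 RPKM.

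The wider list of immediate early genes had 7 of 22 tested genes lower by 1 or more and 0 higher, where 1.95% of all genes were lower. Its median was -0.92, and 21 of the 22 differences were below 0. Egr1, Klf4 and Ier3, among others, belong to more than 1 list. Atf3, a stress-induced factor, was at 9.22 RPKM in normal and 1.59 RPKM in CML cells, a ratio of 5.79 (4.37 to 7.82). Klf2 was at 22.2 and 5.56 RPKM, and Cd69, an early activation antigen, at 191 and 86.9 RPKM. Nr4a1 was at 7.76 and 3.29 RPKM. Jun was at 18.7 and 9.02 RPKM (-0.98), and Fos, its partner in AP-1, at 367 and 232 RPKM (-0.66). The median was -0.38 in ST and -0.67 in LT cells, and the median replicate difference of the same genes was 0.57 in normal and 0.14 in CML LT cells.

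Of 42 interferon-stimulated genes tested, 15 were lower by 1 or more in CML KLS- cells, where 1.95% of all genes were lower. The list had 0 higher genes and a median of -0.71, and 39 of the 42 differences were below 0. Of the 15 lower genes 10 reached the minimum in the normal library alone and 5 in both libraries. The RPKM summed over the list was 627 in normal and 379 in CML cells. The promoters of Ifit1 and Isg15 are shown because these canonical interferon targets both lie in this group. Both windows run from 250 bases before to 50 bases after the start of the gene, are taken from RefSeq in build GRCm38.p6 and are written 5′ to 3′ on the gene's strand. The Ifit1 window is chr19:34640639-34640938 on the plus strand and the Isg15 window is chr4:156200769-156201068 on the minus strand. Capitals mark matches to 2 copies of GAAA with any 2 bases between them, the core of an interferon response element, searched on both strands, of which Ifit1 held 2 and Isg15 held 3 that overlapped each other.
Ifit1: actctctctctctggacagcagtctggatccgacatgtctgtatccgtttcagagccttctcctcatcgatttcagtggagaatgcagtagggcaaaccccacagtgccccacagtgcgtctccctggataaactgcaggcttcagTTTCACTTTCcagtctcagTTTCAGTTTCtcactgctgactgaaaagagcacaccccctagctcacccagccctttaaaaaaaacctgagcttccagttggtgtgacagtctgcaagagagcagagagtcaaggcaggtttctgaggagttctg
Isg15: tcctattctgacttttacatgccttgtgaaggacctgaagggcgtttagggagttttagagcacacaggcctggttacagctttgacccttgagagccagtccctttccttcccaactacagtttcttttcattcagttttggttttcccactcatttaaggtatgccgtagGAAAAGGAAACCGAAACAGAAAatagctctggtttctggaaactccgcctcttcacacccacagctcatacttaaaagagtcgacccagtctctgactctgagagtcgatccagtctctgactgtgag

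The same letters were found in 943 of 27025 promoters (3.49%), in 188 of 5912 promoters of the genes tested in KLS- cells (3.18%) and in 14 of 30 promoters of tested interferon-stimulated genes (46.7%). Among these genes the match was present in 4 of 9 that were lower by 1 or more (44.4%) and in 10 of 21 that were not (47.6%), so it did not separate them. A promoter was at hand for 30 of the 42 tested genes of the list and for 9 of the 15 lower ones. Ifit1, which binds viral RNA, was at 3.16 RPKM in normal and 0.383 RPKM in CML KLS- cells. Isg15, the ubiquitin-like modifier, was at 7.31 and 1.63 RPKM, a ratio of 4.48 (2.82 to 7.43), with a close match elsewhere in the genome for 81.3% of its transcript. Rtp4 was at 10.5 and 0.540 RPKM and Ifi27l2a at 9.74 and 1.10 RPKM. Bst2, tetherin, was at 44.8 and 16.8 RPKM, Usp18, which removes Isg15 from proteins, at 10.1 and 3.30 RPKM, and Irf7, the factor that amplifies the response, at 3.89 and 1.01 RPKM. All of these were lower in the CML library.

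The member with the largest difference was Trim12, a TRIM family gene, at 12.5 RPKM in normal and 0.110 RPKM in CML KLS- cells (-3.60). In ST cells it was at 33.3 and 0.0704 RPKM, and in LT cells at 20.3 and 23.3 RPKM in normal and 0.158 and 0.180 RPKM in CML libraries. It was thus near 0 in all 4 CML libraries. The part of strain, which the sources state differently, in this difference was not tested. Stat2, a signal mediator, was at 2.48 and 3.44 RPKM, the highest difference of the list (0.35). Adar, the RNA-editing enzyme, was at 9.79 and 8.67 RPKM (-0.16). The list's median was -0.76 in ST and -0.62 in LT cells, and 18 and 14 of the 42 genes were lower by 1 or more there. The median replicate difference was -0.38 in normal and -0.33 in CML LT cells, the older or second library being the lower, which is smaller than the CML-to-normal medians.

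Antigen presentation genes differed member by member. Of 24 class I and peptide-loading genes tested, Gm7035 was higher by 1 or more (0.447 and 4.66 RPKM) and 0 were lower, with a median of -0.06. H2-K1, a classical heavy chain, was at 199 and 155 RPKM and B2m, the light chain, at 1605 and 1398 RPKM. Of 9 class II genes, 3 were higher and 2 lower, with a median of 0.20. Cd74, the invariant chain, was at 7.27 RPKM in normal and 26.3 RPKM in CML KLS- cells and H2-Aa at 2.63 and 10.3 RPKM. H2-DMa, a chain of the peptide-exchange factor, was at 97.9 and 29.5 RPKM, while H2-DMb2, a partner chain, was at 1.25 and 11.9 RPKM. H2-Ob was at 4.36 and 0.273 RPKM, and was at least 3.20 RPKM in each normal library and at most 0.663 RPKM in each CML library. The part of strain, which the sources state differently, in the H2-Ob difference was not tested. The H2-DMb2, H2-DMa and H2-Ob differences had the same direction in the ST and LT comparisons, and 59.1% of the H2-DMb2 transcript had a close match elsewhere. Cd74 and H2-Aa were higher in CML ST cells, by 1.58 and 1.66, but had LT differences of -1.75 and -0.69. Their replicate differences in normal LT cells were 1.73 and 2.03.

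The machinery of growth and division was at similar levels in both libraries. Of 53 cell cycle genes tested, 0 differed by 1 or more (median -0.02). Mki67, the proliferation antigen, was at 29.9 and 25.8 RPKM and Top2a, topoisomerase II, at 101.1 and 108.5 RPKM. Of 20 cell cycle inhibitors and D-type cyclins, Cdkn1b, the inhibitor p27, was lower, with 7.31 and 3.06 RPKM, and 0 were higher (median -0.15). It was also lower by 1.02 in ST and by 1.04 in LT cells. Of 45 proteasome subunits 0 differed by 1 or more (median -0.04), as did 0 of 31 MYC target and ribosome biogenesis genes (median 0.00). The 9 reference transcripts had a median of -0.03, with Actb at 3502 and 4302 RPKM.

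Glycolytic genes stood slightly higher in CML KLS- cells, with 18 of 24 differences above 0, a median of 0.37, 2 genes higher by 1 or more and 0 lower. Pklr, the pyruvate kinase of liver and red cells, was at 6.03 RPKM in normal and 22.4 RPKM in CML cells, a ratio of 3.71 (3.31 to 4.16). Eno1, enolase 1, was at 18.2 and 46.6 RPKM, but 85.6% of its transcript had a close match elsewhere. Aldoa, aldolase, was at 518 and 722 RPKM and Pkm2 at 509 and 749 RPKM, both by less than 1. Of 21 lipid genes, Gdpd3 was higher and the prostaglandin synthase Ptgs2 lower, at 2.23 and 0.582 RPKM (median 0.41).

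The study examined the uptake of dipeptides, so peptide transporters and peptidases were read as groups. Slc15a2, the oligopeptide transporter, was at 1.31 RPKM in normal and 2.28 RPKM in CML KLS- cells (0.51), about 194 and 299 reads, a ratio of 1.75 (1.46 to 2.11). Its differences were 1.45 in ST and 1.42 in LT cells. Whether the KLS- difference was smaller than these was not tested, as KLS- cells had 1 library in each group. Slc15a4, the lysosomal family member, was at 2.74 and 4.38 RPKM. Slc15a1 was at 0.204 and 0.0360 RPKM and Slc15a3 at 0.0632 and 0.0239 RPKM, about 2 reads each in CML cells. Of 17 transporters tested 0 differed by 1 or more (median 0.16). Of 30 dipeptidases and aminopeptidases, Cndp2, a cytosolic dipeptidase, was higher, with 9.44 and 21.1 RPKM, and 0 were lower (median 0.11).

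Among 28 lysosomal genes, 2 were higher and 1 lower (median 0.18). Ctse, the aspartic protease cathepsin E, was at 32.7 RPKM in normal and 210 RPKM in CML KLS- cells, a ratio of 6.41 (6.12 to 6.72), and was also higher by 2.81 in ST and by 3.13 in LT cells. Atp6v0e2, a subunit of the proton pump, was listed at 0 in normal cells and at 2.60 RPKM in CML cells. Ctsh, cathepsin H, was at 25.6 and 6.05 RPKM. In the p38, TGF-beta and FOXO group, Tgfbr3, the co-receptor betaglycan, was higher among 17 tested genes, with 1.52 and 5.29 RPKM, and 0 were lower (median 0.01). Smad3 was at 3.67 and 2.64 RPKM (-0.36), Smad2 at 16.3 and 13.9 RPKM, Mapk14, which encodes p38 alpha, at 18.2 and 15.5 RPKM and Tgfbr1 at 3.71 and 3.25 RPKM. Foxo3 was under the minimum at 0.171 and 0.136 RPKM, as was Bcl6 at 0.526 and 0.906 RPKM.

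Of 21 apoptosis genes, 1 was higher and 2 lower (median -0.12). Casp8, the initiator caspase, was at 34.3 RPKM in normal and 9.61 RPKM in CML KLS- cells, a ratio of 3.57 (3.23 to 3.96), with differences of -0.34 in ST and 0.03 in LT cells. Bcl2 was at 9.57 and 3.48 RPKM and Bak1, its pro-apoptotic relative, at 2.86 and 6.73 RPKM. Of 31 cytokine receptors and ligands, 2 were higher and 4 lower (median 0.07). Il4ra was at 4.16 and 10.6 RPKM and Csf2rb2, the beta chain specific for interleukin-3, at 0.908 and 2.96 RPKM with a close match elsewhere for 45.6% of its transcript, whereas the neutrophil chemokine Cxcl2 was at 4.6 and 0.0518 RPKM. Of 20 myeloid transcription factors, Egr1 and Klf4 were lower and 0 were higher (median -0.12), with Cebpa at 4.54 and 3.44 RPKM. Vcam1 was the single one higher of 24 homing genes and 0 were lower (median -0.02). Serpina3f was higher among 9 protease inhibitor genes, at 0.559 and 8.08 RPKM, with 0 lower (median 0.05) and a close match elsewhere for 36.9% of its transcript.

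The 15 largest positive differences ran from 3.37 to 6.99, and 10 of the 15 genes were also higher by 1 or more in both ST and LT cells. For some of these 10 the LT libraries were uneven. Chi3l3 was at 11.3 and 70.5 RPKM in normal and 19.9 and 173.5 RPKM in CML LT libraries, so the groups overlapped. Epx was at 0.0559 and 0.249 RPKM in normal and 4.47 and 0.306 RPKM in CML LT libraries. The 3 largest of the 15 differences belonged to copies of abundant genes. Gm5506, a copy of enolase that RefSeq names Eno1b, was at 0.280 RPKM in normal and 161 RPKM in CML KLS- cells. Gm1821, a copy of the polyubiquitin gene Ubb, was at 4.81 and 399 RPKM, and LOC218963, which RefSeq records as the same locus, at 0.583 and 148 RPKM. BC002163, a copy of Ndufs5, was listed at 0 and at 23.1 RPKM. Over the same libraries Ubb was lower in CML cells, at 1694 and 551 RPKM. In ST and LT cells the copies were likewise high in each CML library, with LOC218963 between 147 and 182 RPKM there and between 0.821 and 1.28 RPKM in the normal libraries. How reads matching several loci were counted was not given in the sources used here, so the levels of these copies and of Ubb and Eno1 are uncertain. The part of strain, which the sources state differently, in the differences of these copies was not tested either. Of the 13 top genes with a transcript to align, 5 had a close match elsewhere for at least 50% of their bases.

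Other genes at the top had a close match for less of their transcript or were not aligned. Chi3l1, a secreted chitinase-like protein, was at 0.0878 RPKM in normal and 28.2 RPKM in CML KLS- cells. Hebp1, a heme-binding protein, was at 6.47 and 90.2 RPKM, a ratio of 13.9 (11.7 to 16.7), and between 5.37 and 14.8 RPKM in the 6 LT and ST libraries. Tnfrsf14, the receptor HVEM, was at 3.76 and 51.9 RPKM, a ratio of 13.8 (11.1 to 17.3). Ifi202b, a DNA-binding protein of the interferon-inducible p200 family, was listed at 0 and at 10.4 RPKM, at least 126-fold higher on the floor of 3 reads with an interval from 101.7, and was at most 0.521 RPKM in the LT and ST libraries. It was outside the interferon list. Gm12166, which was not aligned, was at 0.775 and 17.3 RPKM, and 18.5% of the Ifi202b transcript had a close match elsewhere.

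The 15 largest negative differences ran from -3.60 to -1.99, and 12 of these genes were also lower by 1 or more in both ST and LT cells. Gnb1, the beta 1 subunit of heterotrimeric G proteins (chromosome 4, plus strand, 154865470 to 154933378 in mm9), was at 128 RPKM in normal and 19.7 RPKM in CML KLS- cells, a ratio of 6.51 (6.12 to 6.94). It was at 140 and 23.6 RPKM in ST cells, and in LT cells at 146 and 140 RPKM in normal and 26.2 and 23.2 RPKM in CML libraries. The normal and CML levels did not overlap in any population, and the CML levels lay within 19.7 to 26.2 RPKM. As with Trim12, the part of strain, which the sources state differently, in this difference was not tested. Kcnip3, a calcium-binding repressor, was at 8.15 and 0.185 RPKM, and Vill, a villin-like protein, at 4.09 and 0.0215 RPKM. Rnase12 was at 5.30 RPKM in normal cells and listed at 0 in CML cells, at least 17.1-fold lower on the floor of 3 reads, with an interval from 13.4. Ptpn7, a tyrosine phosphatase of haematopoietic cells, was at 42.5 and 9.92 RPKM and the chemokine Ccl2 at 44.7 and 9.75 RPKM. Freq was at 5.80 and 0.417 RPKM, Rps4y2 at 8.34 and 1.01 RPKM and the histone gene Hist1h2bc, which has near-identical copies, at 41.7 and 9.33 RPKM. One of 13 aligned genes in this group, Hist1h2bc, had a close match elsewhere for at least 50% of its bases.

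The same contrast in the stem cell libraries was set beside that of KLS- cells over the same 8403 genes. No library is shared between the populations. In ST cells 179 genes (2.13%) were higher and 187 (2.23%) lower by 1 or more, and in LT cells 127 (1.51%) were higher and 130 (1.55%) lower. Of the 215 genes higher in CML KLS- cells, 104 were also higher in ST cells (48.4% of the KLS- and 58.1% of the ST genes) and 74 in LT cells (34.4% and 58.3%). Of these genes 60 (27.9%) were higher in all 3 populations and 97 (45.1%) were past 1 in neither ST nor LT cells. Of the 164 genes lower in CML KLS- cells, 92 were also lower in ST cells (56.1% of the KLS- and 49.2% of the ST genes) and 69 in LT cells (42.1% and 53.1%). All 3 populations shared 57 (34.8%) and 60 (36.6%) were past 1 in neither of the others.

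Spread between replicates was read for the same genes. Of the 215 higher genes 53 (24.7%) differed by 1 or more between the replicates of an LT group, and of the 164 lower genes 17 (10.4%) did so. Of all 8403 genes, 8199 differed by less than 1 in both LT pairs. Genes unstable between LT replicates were thus more frequent among the called genes than among all genes. Low levels were common among both, with 58 of the higher genes under 1 RPKM in the normal library and 44 of the lower genes under 1 RPKM in the CML library. Pyhin1, a p200 family gene at 29.0 RPKM in normal and 9.40 RPKM in CML KLS- cells, went the opposite way in the stem cells, at 0.837 and 12.1 RPKM in ST cells. For 94.7% of its transcript a close match lay elsewhere in the genome.

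**Figure D5:**
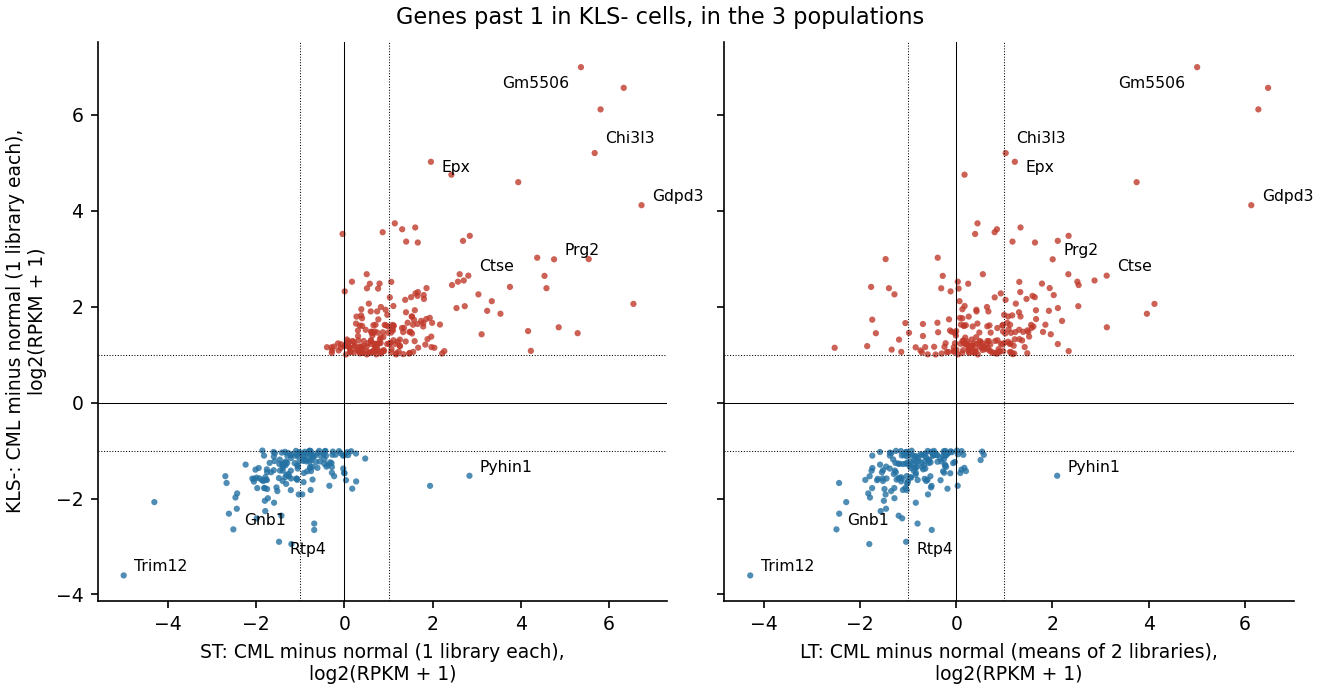
Differences of the 379 genes past 1 in KLS- cells (vertical) against the differences of the same genes in ST cells (left) and LT cells (right), all as CML minus normal log2(RPKM + 1). Gdpd3, Ctse, Trim12 and Gnb1 lay past 1 in the same direction in all 3 populations, and Pyhin1 had the opposite sign in ST and LT cells.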

How the data were processed

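RNA of sorted LT, ST and KLS- bone marrow cells was sequenced in 8 libraries. The authors made cDNA from small RNA inputs by oligo-dT priming, mapped paired-end reads to mm9 and deposited 1 RPKM value per gene and library. The gene annotation and the counting of reads with several matches were not given in the sources used here.

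No count test was used, because RPKM is a length- and depth-scaled value. Differences were computed as CML minus normal log2(RPKM + 1) between the KLS- libraries, over genes with at least 2 RPKM in 1 of them, and were counted where they reached 1 in either direction. Libraries were grouped from their labels. Reads were estimated only for precision, since RPKM scales with the reads: low values of 3162 of 4197 genes examined (75.3%) were whole multiples of 1 step, and the exon lengths of GENCODE M1 on mm9 set the scale for the 18842 gene names with 1 locus. The share that coincidence gives was not estimated. Transcripts were aligned to mm9 with blastn 2.17.0 (matches of at least 100 bases and 95% identity outside the gene's own locus). Promoters came from RefSeq, with 1 promoter counted per gene symbol and those of chromosome 18 left out. Python 3.11.15 with pandas 2.3.3, numpy 2.4.6, scipy 1.17.1 and matplotlib 3.10.9 was used, and the counting step was tested on simulated data.

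The comparison and the 37 gene lists were chosen with earlier results of these data known. Genes were named by a rule: the 15 largest differences in each direction, up to 5 members of each list with the largest differences past 1 and up to 3 with the highest mean RPKM, the sorting and lineage antigens, the Slc15a family, Gdpd3, genes the study names, and genes past 1 in the opposite direction in both ST and LT cells. A few further members were named for their known roles or as copies of named genes after their values were seen. The alternatives tried were the pseudocount, the minimum, quantile, median and upper-quartile scaling, the removal of mitochondrial, ribosomal protein and globin genes, and the threshold. Setting aside genes unstable between LT replicates was added after the data were seen. Of the sex-linked list, Xist alone reached the minimum, with a difference of -0.12. Some genes that the naming rule covers are not reported here.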

Additional observations from a re-analysis of the deposited data

Results flagged for a closer look

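Pyhin1 was the single gene past 1 in KLS- cells whose differences in ST and LT cells both passed 1 in the opposite direction. It was lower in CML KLS- cells, with a difference of -1.53, and higher in CML ST cells by 2.83 and in CML LT cells by 2.10. In LT cells it was at 0.416 and 0.634 RPKM in normal and at 5.57 and 5.46 RPKM in CML libraries. The difference between the populations was not tested, since KLS- and ST cells had 1 library in each group, and 94.7% of the Pyhin1 transcript had a close match elsewhere in the genome.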

How the results depend on the processing

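The counts of 215 higher and 164 lower genes stayed within 1.5 times under the other pseudocounts, minimums and scalings, and 51 and 14 genes remained past a threshold of 2. The share of these genes that was higher was 56.7%, and 55.6% to 59.8% over the other settings at a threshold of 1. Of 174 list medians computed under alternatives, 166 moved by less than 0.29. This limit was the standard deviation over single genes of the LT replicate difference, the larger of the 2 pairs, divided by the square root of 2. Of 591 values of named genes under alternatives, 51 moved by that limit or more. Of the 92 called named genes, 0 changed sign under the settings run for them, and 91 stayed past 1 with quantile normalization. With a pseudocount of 0.1 the median of the eosinophil genes was 5.23 and that of the RAS-ERK feedback genes -1.05. With a minimum of 5 RPKM the RAS-ERK median was -0.98 and that of the basophil and mast cell genes -0.53. Without genes that differed by 1 or more between LT replicates, chosen after the data were seen, the medians were -0.072 for primary granule, 0.49 for neutrophil, -0.17 for dendritic and 1.49 for eosinophil genes. The cause was not tested. No paired analysis was possible because each KLS- group had 1 library. No library could be left out, and depth limits values under about 0.169 RPKM for a transcript of 1 kb.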
